A study of Mus musculus with 6 samples.

Results

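The phagocyte NADPH oxidase is described here through 7 genes, chosen by symbol from the 55335 genes of the count table: the membrane subunits Cybb and Cyba, the cytosolic subunits Ncf1 and Ncf4, the small GTPases Rac1 and Rac2, and the proton channel Hvcn1. All 7 passed the filter on low counts. RNA was sequenced from CD11b+ cells that had been sorted from the spleens of wild-type mice by flow cytometry. One group had a myocardial infarction together with renal denervation, in which the kidney's nerve supply is destroyed (MI+RDN, 3 libraries), and the other had the infarction alone (MI, 3 libraries), so both groups carry an infarct. The labels give no age, sex, infarct model or time after surgery. They call the replicates biological without saying if each came from a single mouse or from pooled mice. The tests therefore compare these libraries, and the spread between single mice is not known.

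The oxidase moves electrons from cytosolic NADPH across a membrane onto oxygen, which gives the superoxide that neutrophils and macrophages use against microbes. In resting cells the flavocytochrome of gp91phox (Cybb) and p22phox (Cyba) sits in granule, phagosome and plasma membranes, apart from the cytosolic subunits. On stimulation, phosphorylated p47phox (Ncf1) docks on p22phox, p40phox (Ncf4) binds phosphatidylinositol 3-phosphate on the phagosome, and GTP-bound Rac joins the complex. The proton channel Hv1 (Hvcn1) lets protons follow the electrons, which keeps the membrane potential and the cytosolic pH in a range where the enzyme can run. Assembly and activity are set largely after transcription, and RNA levels do not measure them.

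The 7 genes did not move as a unit between the groups. Rac2, Ncf4 and Cyba stood higher in every MI+RDN library than in any MI library, by 1.30- to 1.47-fold, and Rac1 differed by 1.05-fold. Cybb, Ncf1 and Hvcn1 did not separate the groups, and within MI+RDN they stood highest in replicate 2 and lowest in replicate 3. Ncf4 and Rac1 were also highest in replicate 2 and lowest in replicate 3 of MI+RDN, over a smaller range. With edgeR's quasi-likelihood test, 0 of the 7 passed a Benjamini-Hochberg adjusted p of 0.05 over all 14849 tested genes, where 150 genes, or 1.01%, passed (0.296% as higher). At an unadjusted p under 0.05 there were 3 of the 7, Rac2, Ncf4 and Cyba, against 19.9% of all tested genes. The same 3 passed with the DESeq2 Wald test, which called 9.08% of its tested genes (4.37% as higher). With limma-voom, which called 111 genes in all, 0 of the 7 passed.

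**Figure D1:**
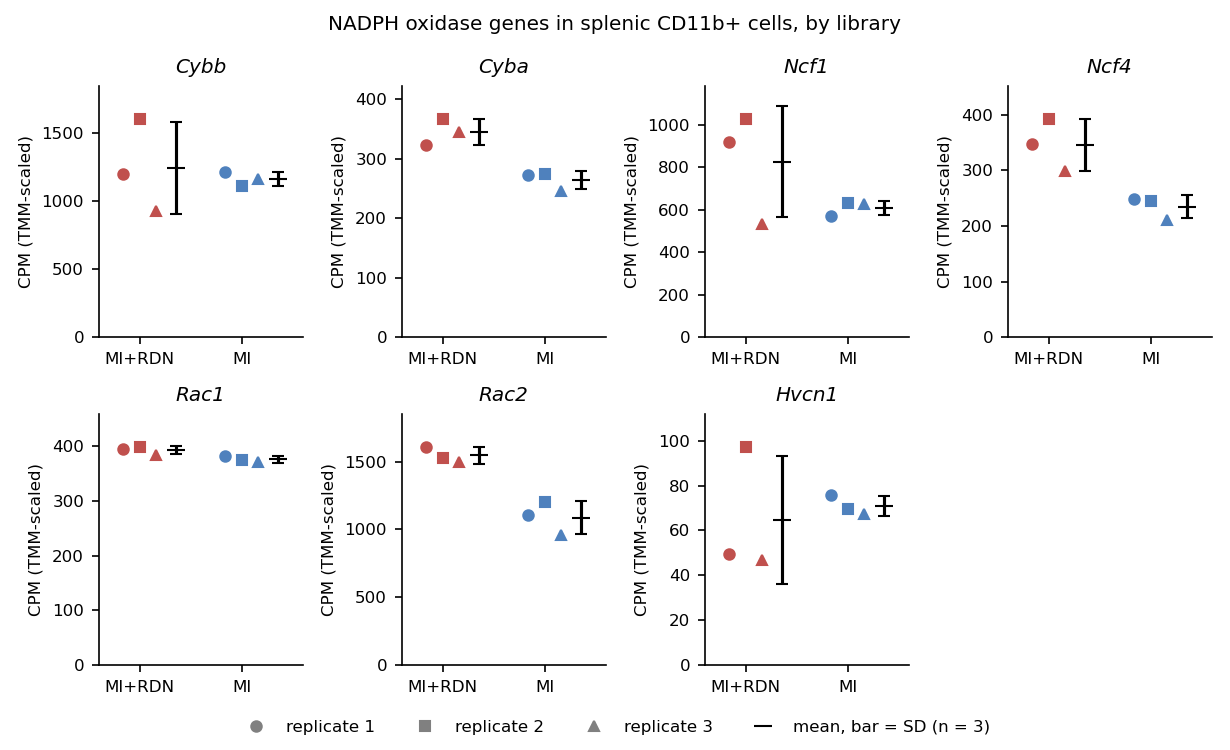
Level of each oxidase gene in each library, in CPM (counts scaled by library size) on TMM-scaled library sizes, with MI+RDN in red and MI in blue, a symbol for each replicate, and the group mean with its SD beside the points (n = 3). Rac2, Ncf4, Cyba and, by a narrow margin, Rac1 have groups that do not overlap, whereas Cybb, Ncf1 and Hvcn1 spread widely among the MI+RDN libraries.

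Library totals ranged from 24634555 to 28013900 counts in MI+RDN and from 21663440 to 24677865 in MI. The first principal component of the 500 most variable genes separated the groups, and the second, with 22.2% of the variance, ran from 29.6 in MI+RDN replicate 3 to -17.4 in MI+RDN replicate 2. The mRNA of the sort marker CD11b, Itgam, stood at 1666, 1638 and 1489 CPM in MI+RDN libraries and 1087, 1301 and 1011 CPM in MI libraries. Neutrophil markers were high in both groups, with summed levels of 27820 to 30950 CPM in MI+RDN and 13460 to 20620 CPM in MI over 16 genes. Markers of cells that a CD11b gate largely leaves out were present at lower levels. The 12 B cell markers summed to 347 to 546 CPM in MI+RDN and 661 to 964 CPM in MI, and the 11 T cell markers to 41.8 to 65.5 CPM and 105 to 136 CPM.

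Cybb encodes gp91phox, also called NOX2, the catalytic subunit that holds the haem and flavin groups and whose loss causes X-linked chronic granulomatous disease in humans. It had 1195, 1604 and 929 CPM in MI+RDN libraries and 1216, 1111 and 1158 CPM in MI libraries. The MI+RDN libraries lay on both sides of the MI range, with replicate 2 above it, replicate 3 below it and replicate 1 inside it. The means were 1243 ± 340 CPM in MI+RDN and 1162 ± 52.4 CPM in MI (SD, n = 3), a log2 fold change of 0.097 (SE 0.194, edgeR adjusted p = 0.818). The sign was not stable, since the log2 fold change was -0.036 on unscaled library sizes, -0.15 when MI+RDN replicate 2 was left out and 0.25 when replicate 3 was.

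Cyba encodes p22phox, the small partner that stabilises gp91phox in the membrane and carries the docking site for p47phox. It had 323, 367 and 345 CPM in MI+RDN libraries and 273, 275 and 246 CPM in MI libraries. Every MI+RDN library stood above every MI library. The means were 345 ± 22.0 CPM in MI+RDN and 265 ± 15.7 CPM in MI (SD, n = 3), a log2 fold change of 0.38 (SE 0.0966, edgeR adjusted p = 0.0916, DESeq2 adjusted p = 0.0100). With any 1 library left out the log2 fold change stayed between 0.32 and 0.43, and the edgeR adjusted p between 0.146 and 0.237.

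Ncf1 encodes p47phox, the organiser that brings the other cytosolic subunits to the membrane once it is phosphorylated. It had 917, 1027 and 533 CPM in MI+RDN libraries and 570, 630 and 626 CPM in MI libraries. Replicates 1 and 2 of MI+RDN stood above all MI libraries and replicate 3 below all of them. The means were 826 ± 259 CPM in MI+RDN and 609 ± 33.7 CPM in MI (SD, n = 3), a log2 fold change of 0.44 (SE 0.224, edgeR adjusted p = 0.319). It was 0.66 when MI+RDN replicate 3 was left out and 0.23 when replicate 2 was.

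Ncf4 encodes p40phox, the subunit with a PX domain for phosphatidylinositol 3-phosphate that supports oxidase activity on phagosomes. It had 347, 393 and 299 CPM in MI+RDN libraries and 249, 246 and 210 CPM in MI libraries. The groups did not overlap, and MI+RDN replicate 3 stood lowest of its group. The means were 346 ± 47.1 CPM in MI+RDN and 235 ± 21.4 CPM in MI (SD, n = 3), a log2 fold change of 0.56 (SE 0.127). This was the lowest adjusted p of the 7 genes with edgeR (0.0746), and DESeq2 gave an adjusted p of 0.00219. Leaving out 1 library gave log2 fold changes of 0.44 to 0.64.

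Rac2, the GTPase that is largely confined to blood cells and is the main Rac of the mouse neutrophil oxidase, had 1612, 1530 and 1495 CPM in MI+RDN libraries and 1105, 1199 and 956 CPM in MI libraries. The lowest MI+RDN library stood well above the highest MI library. The means were 1546 ± 59.9 CPM in MI+RDN and 1087 ± 122 CPM in MI (SD, n = 3), a log2 fold change of 0.51 (SE 0.127, edgeR adjusted p = 0.0897, DESeq2 adjusted p = 9.37e-04). Leaving out 1 library gave 0.42 to 0.59, with edgeR adjusted p of 0.108 to 0.228.

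Rac1, the broadly expressed paralog that also drives lamellipodia, had 396, 400 and 385 CPM in MI+RDN libraries and 383, 375 and 371 CPM in MI libraries. All 6 libraries lay within a narrow band, and MI+RDN replicate 3 stood just above the highest MI library. The means were 393 ± 7.75 CPM in MI+RDN and 376 ± 5.95 CPM in MI (SD, n = 3), a log2 fold change of 0.065 (SE 0.0855, edgeR adjusted p = 0.711), which turned to -0.072 without scaling factors. On unscaled library sizes Rac1 had 371, 391 and 363 CPM in MI+RDN libraries and 396, 384 and 402 CPM in MI libraries, and the groups overlapped, so its order between the groups rests on the scaling. Per transcript length, as set out below, every MI+RDN library stood below every MI library. With TMM factors, 4 of the 7 genes had groups that did not overlap, Rac2, Ncf4, Cyba and Rac1, all of them higher in MI+RDN. Among all tested genes 26.2% had groups that did not overlap, and 12.4% did so with MI+RDN higher and 13.7% with MI+RDN lower.

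Hvcn1, the voltage-gated proton channel of phagocytes, which B cells also express, had the lowest level of the 7. It had 49.4, 97.5 and 46.7 CPM in MI+RDN libraries and 75.7, 69.7 and 67.3 CPM in MI libraries. Replicates 1 and 3 of MI+RDN stood below every MI library and replicate 2 stood above all of them. The means were 64.5 ± 28.6 CPM in MI+RDN and 70.9 ± 4.31 CPM in MI (SD, n = 3), a log2 fold change of -0.13 (SE 0.263, edgeR adjusted p = 0.814). Without MI+RDN replicate 2 it was -0.58 (edgeR adjusted p = 0.0584), and without MI+RDN replicate 1 or replicate 3 it was 0.030 or 0.041.

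The 7 log2 fold changes had a median of 0.38 beside 0.0080 over all tested genes, and 6 were positive beside 51.0% of all tested genes. Without scaling factors, the median over all tested genes moved to -0.13 and that of the 7 genes to 0.25. In that setting Cybb (-0.036), Rac1 (-0.072) and Hvcn1 (-0.26) were negative and the rest positive, so the count of positive genes depends on the scaling. In the annotation of build GRCm38, exons of 3 of the 7 overlap exons of a gene on the opposite strand, and the strand setting used in counting is not given in the sources used here. Rac1 shares 2309 of its 4496 exon bases with Daglb, a diacylglycerol lipase gene, which had 1204 to 1666 counts per library beside 8315 to 10939 for Rac1. Hvcn1 shares 1574 of 3563 exon bases with Tctn1, which had 1657, 660 and 903 counts in MI+RDN libraries, lowest where Hvcn1 was highest, and 850, 1053 and 1082 counts in MI libraries. Ncf1 shares 408 of 3663 exon bases with Gtf2ird2, which had 149 to 279 counts per library.

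The spread between libraries of a group differed among the genes. The coefficient of variation in MI+RDN was 27.3% for Cybb, 31.4% for Ncf1 and 44.3% for Hvcn1, against 4.51%, 5.53% and 6.08% for these genes in MI. Of the 3940 genes averaging 50 CPM or more, 95.1%, 96.5% and 98.5% varied less than these 3 in MI+RDN, and the median gene had a coefficient of 9.22% in MI+RDN and 7.90% in MI. Rac1 varied by 1.97% in MI+RDN and 1.58% in MI, and 4.01% and 3.38% of those genes varied less. Rac2 varied by 3.88% in MI+RDN and 11.3% in MI.

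The neutrophil precursor granule genes are 12 markers of immature neutrophils such as Elane, Camp and Ltf. Within MI+RDN the list was highest in replicate 2 and lowest in replicate 3, as were Cybb, Ncf1 and Hvcn1. Relative to the mean of the 6 libraries, the mean log2 level of that list was 0.093, 1.82 and -0.65 in MI+RDN replicates 1 to 3, and -0.0078, -0.35 and -0.91 in MI replicates 1 to 3. On the same scale Cybb stood at 0.011, 0.43 and -0.35 in the MI+RDN libraries, Ncf1 at 0.40, 0.56 and -0.38, and Hvcn1 at -0.41, 0.57 and -0.49. Ncf4 had the same highest and lowest library within MI+RDN, at 0.29, 0.47 and 0.073, as did Rac1, at 0.041, 0.055 and 0.0003. MI replicate 3 was lowest of all for the granule list but not for Cybb, Ncf1 or Hvcn1. Within MI the list was highest in replicate 1, as were Cybb (0.036) and Hvcn1 (0.21), but Ncf1 was lowest there (-0.29). For splenic macrophage markers the mean log2 level was -0.75, -0.41 and 0.19 across the 3 MI+RDN libraries, highest in the replicate where Cybb, Ncf1 and Hvcn1 were lowest, and at 0.17, 0.31 and 0.50 in MI replicates 1 to 3. The part of either cell type in the levels of these 3 genes was not tested. In sorted bulk RNA, fewer cells of a type and less RNA per cell cannot be told apart.

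**Figure D2:**
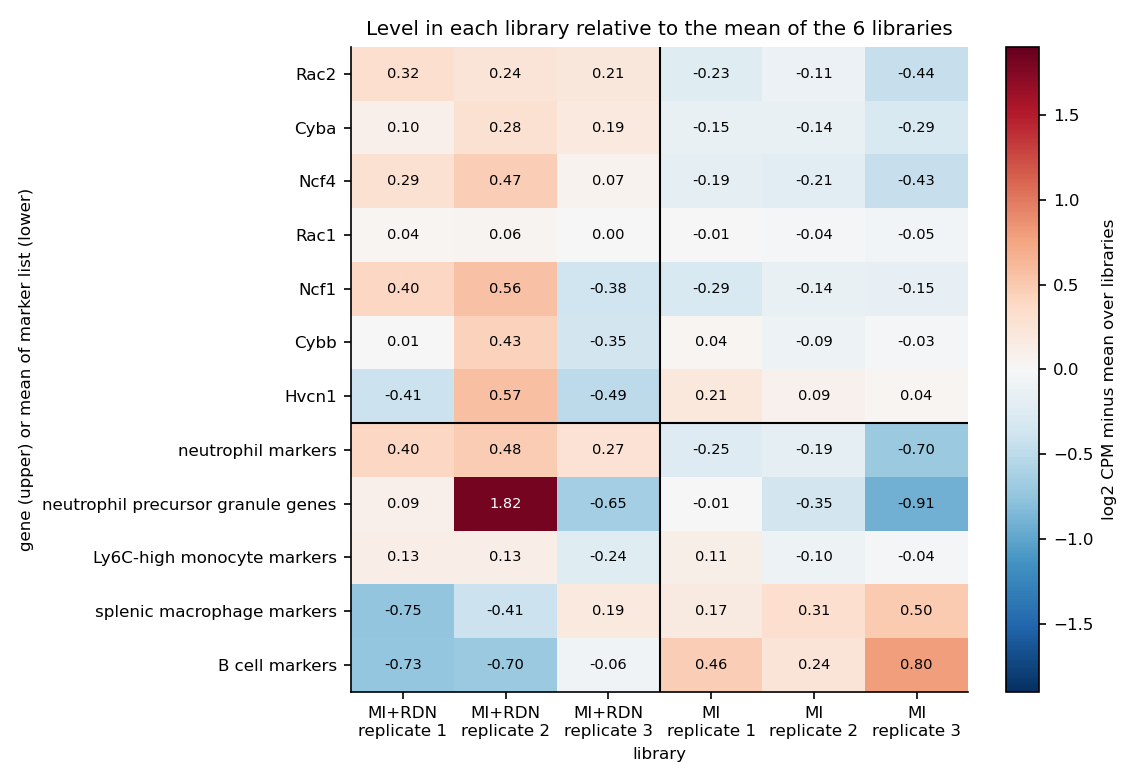
Log2 CPM of each oxidase gene (upper rows) and mean log2 CPM of marker lists (lower rows) in each library, minus the mean over the 6 libraries, printed in each cell and coloured from blue (lower) to red (higher). Rac2, Cyba and Ncf4 are positive in all MI+RDN libraries, and Ncf1, Cybb and Hvcn1 are positive in MI+RDN replicate 2 and negative in MI+RDN replicate 3.

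Promoter sequences are shown for Cybb, Ncf1 and Cyba, the 3 of the 7 genes with a match among the RefSeq promoters used here, to set 2 genes that varied widely among the MI+RDN libraries beside 1 that did not. The letters below are the 120 bases before the annotated start on the minus strand of GRCm38.p6, and capitals mark GGAA on either strand (TTCC where it lies on the other), the core bound by ETS factors such as PU.1.
Cybb, chrX:9469325-9469444: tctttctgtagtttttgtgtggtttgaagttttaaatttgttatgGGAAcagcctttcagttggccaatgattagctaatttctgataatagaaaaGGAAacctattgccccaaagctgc
Ncf1, chr5:134229626-134229745: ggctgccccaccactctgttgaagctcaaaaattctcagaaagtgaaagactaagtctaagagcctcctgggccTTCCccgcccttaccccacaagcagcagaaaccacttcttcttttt
Cyba, chr8:122432941-122433060: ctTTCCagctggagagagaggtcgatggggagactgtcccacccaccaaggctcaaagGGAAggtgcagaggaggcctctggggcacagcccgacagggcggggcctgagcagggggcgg
The Cybb stretch held 2 such cores, the nearer one starting 24 bases before the start, the Ncf1 stretch held 1 and the Cyba stretch held 2. Of 32851 promoters in the table, 73.4% held at least 1 in the same 120 bases. The longer GAGGAA, which contains GGAA, and the ETS-IRF composite element, each searched on both strands, had no match in the 250 bases before any of the 3 starts, beside 23.3% and 2.30% of all promoters that held them. The search for GGAA and the 120-base length were chosen after that was seen. These are matches of letters, and no binding was measured.

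Levels of different genes were set side by side per length, as TPM (counts per transcript length, scaled to the same total in each library) from the longest annotated transcript. Rac2 averaged 1105 ± 66.8 TPM in MI+RDN and 881 ± 101 TPM in MI (SD, n = 3), and Cyba 1006 ± 57.1 TPM in MI+RDN and 876 ± 56.9 TPM in MI. These 2 were the highest of the 7 in every library, and within MI their levels lay within an SD of each other. Ncf1 averaged 624 ± 203 TPM in MI+RDN and 520 ± 24.2 TPM in MI, and Cybb 568 ± 159 TPM and 602 ± 32.0 TPM. Cybb stood above Ncf1 in all 3 MI libraries and below it in MI+RDN replicates 1 and 2, although in MI+RDN their SDs overlapped. Ncf4 followed with 514 ± 75.2 TPM in MI+RDN and 395 ± 38.5 TPM in MI, then Rac1 with 205 ± 7.82 TPM and 223 ± 5.57 TPM, and Hvcn1 was last with 49.9 ± 22.1 TPM and 62.2 ± 4.37 TPM. TPM carries no TMM factors. Rac1 had 211, 208 and 196 TPM in MI+RDN libraries and 229, 221 and 218 TPM in MI libraries. Each MI+RDN library stood below every MI library, the reverse of Rac1's order in TMM-scaled CPM. The mean of Cybb was also lower in MI+RDN in TPM and higher in TMM-scaled CPM. With the mean length of the coding transcripts in place of the longest, Rac2 stayed first and Rac1 and Hvcn1 last, but Cybb moved above Cyba in MI (866 and 733 TPM), so the middle of the order depends on the transcript assumed.

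Ratios within a library do not depend on library scaling, and 8 of them were compared with two-sided exact permutation tests, where 3 libraries against 3 allow no p below 0.10. The count ratio of Rac2 to Rac1 was 4.07, 3.83 and 3.89 in MI+RDN libraries and 2.89, 3.20 and 2.58 in MI libraries. The groups did not overlap, and the MI+RDN libraries lay closer together than the MI libraries. The log2 ratio averaged 1.97 ± 0.0467 in MI+RDN and 1.52 ± 0.155 in MI (SD, n = 3), a difference of 0.45 (exact permutation p = 0.10, adjusted p = 0.267 over the 8 ratios). Leaving out 1 library gave 0.37 to 0.53.

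The ratio of Cyba to Rac1 was 0.817, 0.919 and 0.896 in MI+RDN libraries and 0.713, 0.732 and 0.665 in MI libraries, again without overlap (log2 difference 0.32, exact permutation p = 0.10, adjusted p = 0.267). Rac1 differed little between the groups, with a log2 fold change of 0.065. The ratios of Rac2 and Cyba to Rac1 therefore largely restate those genes' own log2 fold changes of 0.51 and 0.38, and are not separate evidence. Ncf1 to Cybb, the organiser over the catalytic subunit, was 0.767, 0.641 and 0.574 in MI+RDN libraries and 0.469, 0.567 and 0.540 in MI libraries. Although each of these genes overlapped between the groups by itself, their ratio did not (log2 difference 0.32, exact permutation p = 0.10, adjusted p = 0.267). MI+RDN replicate 3, where both genes were lowest, lay just above the highest MI library.

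The other ratios overlapped between the groups. Within the flavocytochrome, Cybb to Cyba was 3.70, 4.37 and 2.70 in MI+RDN libraries and 4.46, 4.05 and 4.70 in MI libraries, a log2 difference of -0.32 (exact permutation p = 0.20, adjusted p = 0.267). Between the cytosolic subunits, Ncf1 to Ncf4 differed by -0.17 (exact permutation p = 0.70). Cybb to Rac1 differed by -0.0025 (exact permutation p = 1.0), Hvcn1 to Cybb by -0.28 and Rac2 to Cybb by 0.45 (exact permutation p = 0.20 for each of the last pair). The sign was kept with every single library left out for all of the 8 ratios but Ncf1 to Ncf4 and Cybb to Rac1.

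**Figure D3:**
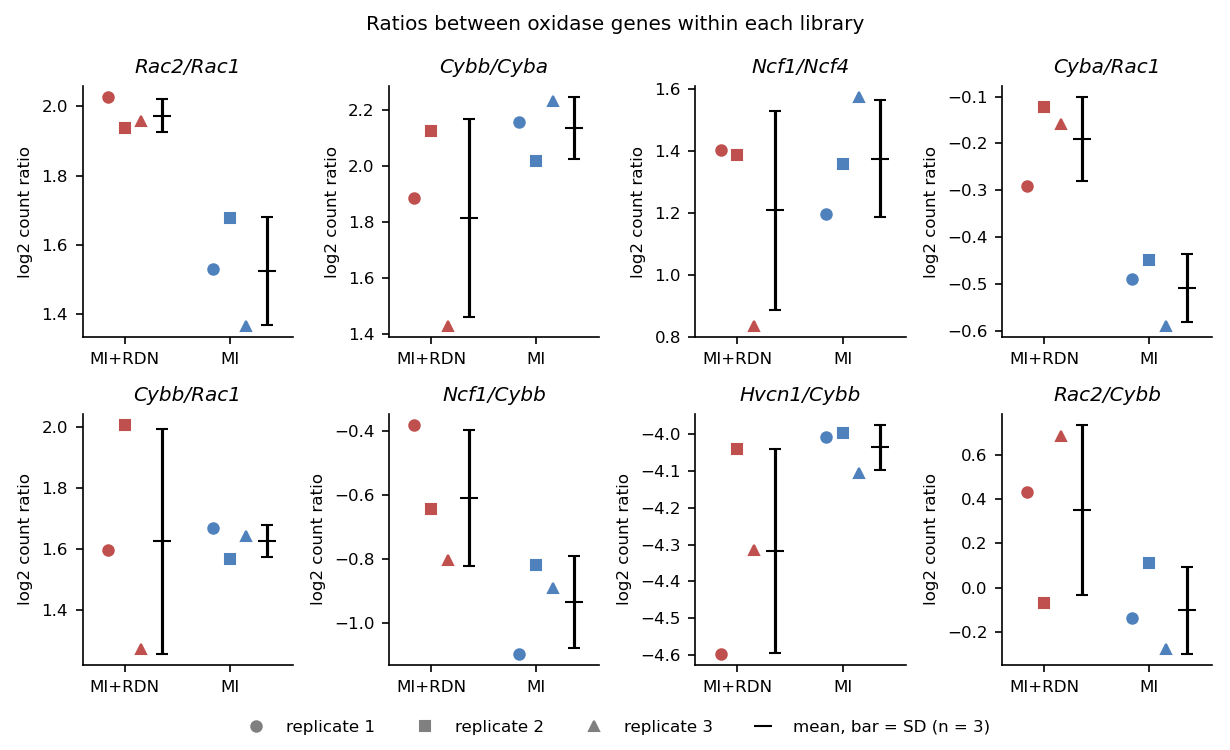
Log2 ratio of counts between pairs of oxidase genes in each library, MI+RDN in red and MI in blue, with the group mean and SD (n = 3) and a separate vertical scale in each panel. Rac2/Rac1, Cyba/Rac1 and Ncf1/Cybb have groups that do not overlap, all higher in MI+RDN.

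Neutrophil markers and Itgam, like Rac2, Ncf4 and Cyba, stood higher in MI+RDN, so the members were also set against them within each library. Of the 16 neutrophil markers, 16 had positive log2 fold changes with a median of 0.78, and 2 rose, Ly6g and Retnlg, where 0.296% of all tested genes passed as higher. At an unadjusted p under 0.05 there were 11 of the 16 (19.9% of all genes), and DESeq2 called 10 (9.08% of its tested genes). The 2 edgeR calls were lost without a filter and with any single library but MI+RDN replicate 2 left out. The list had 4 calls without scaling factors, where 475 genes passed in all, and 4 with robust edgeR, where 277 did. Ly6g, the defining surface marker of mouse neutrophils, had 107, 171 and 103 CPM in MI+RDN libraries and 50.1, 49.0 and 31.5 CPM in MI libraries. Itgam had a log2 fold change of 0.50 (SE 0.136, edgeR adjusted p = 0.109).

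Rac2 stayed close to Itgam in every library. The difference in log2 CPM between the genes was -0.048, -0.099 and 0.0060 in MI+RDN libraries and 0.024, -0.12 and -0.081 in MI libraries, a mean difference between the groups of 0.012 (exact permutation p = 0.80). Ncf4 against Itgam differed by 0.052 between the groups and Cyba by -0.12, with overlap in both. Rac1 against Itgam was -2.07, -2.04 and -1.95 in MI+RDN libraries and -1.51, -1.79 and -1.45 in MI libraries, lower in all MI+RDN libraries (difference -0.44, exact permutation p = 0.10, adjusted p = 0.194 over 35 such comparisons). As Rac1 itself differed little between the groups, that difference largely restates the log2 fold change of Itgam with its sign turned. Cybb differed by -0.44, Hvcn1 by -0.72 and Ncf1 by -0.12, with overlap between the groups for all 3.

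Against the mean of the 16 neutrophil markers, all 7 genes had negative differences between MI+RDN and MI. Rac2 differed by -0.25 and Cyba by -0.38 without overlap, and Ncf4 by -0.21 and Ncf1 by -0.37 with overlap. Rac1 differed by -0.70, Cybb by -0.70 and Hvcn1 by -0.98, each without overlap (exact permutation p = 0.10 and adjusted p = 0.194 for each of the 5 that did not overlap). Against 9 Ly6C-high monocyte markers, whose median log2 fold change was -0.080, Rac2 differed by 0.50, Ncf4 by 0.54 and Cyba by 0.37, all without overlap (exact permutation p = 0.10, adjusted p = 0.194). Against B cell markers, which had a median of -0.87, the differences ran from 0.78 for Hvcn1 to 1.55 for Ncf4, and against splenic macrophage markers, with a median of -0.59, from 0.43 for Hvcn1 to 1.21 for Ncf4. Setting the members against a list shifts all 7 by that list's own difference between the groups. The signs here, and whether the groups overlap, thus carry the list's difference as well as the member's. Relative to its mean over the 6 libraries, the neutrophil list stood at 0.40, 0.48 and 0.27 in MI+RDN and -0.25, -0.19 and -0.70 in MI. The share of all tested genes without overlap against these lists was not computed.

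**Figure D4:**
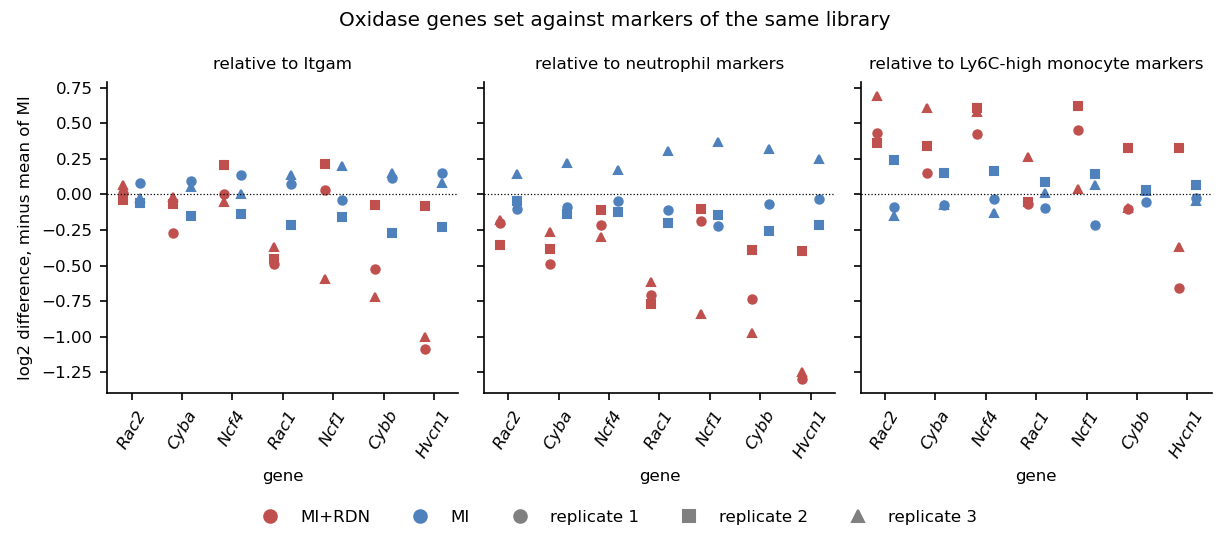
Log2 CPM of each oxidase gene minus Itgam, the mean of neutrophil markers or the mean of Ly6C-high monocyte markers in the same library, shown relative to the MI mean, with MI+RDN in red and MI in blue. Rac2, Ncf4 and Cyba lie near 0 against Itgam, below 0 against neutrophil markers and above 0 against monocyte markers in MI+RDN.

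The remaining marker lists gave the following medians and counts past the threshold with edgeR. Neutrophil precursor granule genes had a median of 1.21 on the log2 scale, or 0.17 once MI+RDN replicate 2 was left out, and 0 of 12 passed. Conventional DC2 markers had -0.85 with 3 of 9 lower (Zbtb46, Cd209a and Clec10a), and T cell markers -1.11 with 2 of 11 lower, Cd4 and Cd3d, where 0.714% of all tested genes passed as lower. All 3 DC2 calls were lost without a filter and with any single library left out, and 1 was left with the replicate block. Of the T cell calls, 0 or 1 was left with any single library left out, and 1 without a filter or with the replicate block. Conventional DC1 (-0.81), erythroid (-1.26), NK cell (-0.071), Ly6C-low monocyte (0.026) and eosinophil (-0.11) lists, like the B cell and splenic macrophage lists, had 0 past it. Ly6C-high monocytes had 1 of 9, Ly6c2, higher, a call lost without a filter and with any single library left out. Some settings called more. The B cell list had 8 past it without scaling factors and 8 with the replicate block, where 87 genes passed in all. It had 3 with robust edgeR, where 277 passed in all, and 3 for genes averaging 5 CPM or more, where 290 did. It also had 3 without receptor, haemoglobin and mitochondrial genes, where 277 passed in all. Without scaling factors, where 475 genes passed in all, T cell markers had 5, DC2 4, erythroid 4, Ly6C-low 2 and NK 1. With 1 library left out the median ran from -0.67 to 0.044 for eosinophil markers, -0.27 to 0.015 for NK cells, -0.097 to 0.040 for Ly6C-low monocytes, -0.21 to 0.064 for Ly6C-high monocytes and -1.08 to -0.37 for splenic macrophages. At an unadjusted p under 0.05 (19.9% of all tested genes) the granule list had 2 of 12 and DC1 5 of 5. Erythroid had 5 of 7, NK 1 of 7, Ly6C-low 2 of 9 and eosinophil 1 of 4. The B cell list had 12 of 12 and macrophage 5 of 12. DESeq2 called 0, 2, 5, 1, 2, 0, 11 and 3 genes of these lists in that order, beside 9.08% of its tested genes. Limma-voom called 0 of each, and 111 genes in all. T cell markers had 10 of 11 at an unadjusted p under 0.05, DC2 4 of 9 and Ly6C-high monocytes 1 of 9. For these 3 lists DESeq2 called 8, 4 and 1 genes, and limma-voom 1, 2 and 1.

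The other genes that make, switch on or use the oxidase were counted in 6 lists. Among all tested genes edgeR called 1.01% and limma-voom 111 genes, and in these lists each called 1 gene in all. That gene was Vav2, an exchange factor that loads Rac with GTP, which had 34.0, 34.5 and 33.0 CPM in MI+RDN libraries and 56.1, 56.1 and 68.2 CPM in MI libraries. It fell 1.78-fold (log2 fold change -0.83, SE 0.104, edgeR adjusted p = 0.0278), as the only one of 16 exchange factors, inhibitors and GTPase-activating genes of Rac to pass, where 0.714% of all genes passed as lower. The call was lost without a filter (edgeR adjusted p = 0.0615), with the replicate block (0.0521) and with any single library but MI+RDN replicate 2 left out (0.0575 to 0.112). Vav1, the main Vav of blood cells, had 316 CPM in MI+RDN and 289 CPM in MI on average and did not pass (edgeR adjusted p = 0.488). The list had a median log2 fold change of 0.092, which turned to -0.042 without scaling factors.

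Of 10 genes for oxidase biogenesis and adaptors, 0 passed with edgeR, 6 had an unadjusted p under 0.05 (19.9% of all tested genes), 4 passed with DESeq2 (9.08%) and 0 with limma-voom. S100a9 and S100a8, the calcium-binding pair that is abundant in neutrophils and promotes oxidase assembly, led with log2 fold changes of 0.99 and 1.05 (edgeR adjusted p = 0.0888 and 0.0989). S100a9 had 9148, 12000 and 8062 CPM in MI+RDN libraries and 5207, 5912 and 3604 CPM in MI libraries, without overlap, and both genes also stand in the neutrophil list. Of the other 4 with an unadjusted p under 0.05, Rap1a (-0.32), Hsp90aa1 (-0.41) and Hsp90ab1 (-0.45) had negative log2 fold changes and Coro1a (0.31) a positive one (edgeR adjusted p = 0.136 to 0.188). These 4 were named after their values were seen. The groups did not overlap for 6 of the 10 genes, the same 6, beside 26.2% of all tested genes. A low p and groups that do not overlap go together, so the one adds little to the other. Cybc1, the chaperone EROS that gp91phox and p22phox need to mature, had 170 CPM in MI+RDN and 156 CPM in MI on average (log2 fold change 0.12, edgeR adjusted p = 0.514), and was named after its values were seen.

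Among 18 kinases and lipid enzymes that act on the oxidase, 0 passed with edgeR and 0 with DESeq2, 3 had an unadjusted p under 0.05, a share below the 19.9% of all tested genes, and the median was 0.084 (-0.053 without scaling factors). Pik3r4, a subunit of the class III phosphatidylinositol 3-kinase whose lipid p40phox binds, and Pik3r6, a regulatory subunit of the kinase of chemoattractant receptors, had the lowest p, with log2 fold changes of -0.32 and 0.34 (edgeR adjusted p = 0.142 and 0.180). Pik3r6 had 117, 117 and 115 CPM in MI+RDN libraries and 101, 99.5 and 75.0 CPM in MI libraries.

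Of 11 tested transcription factors that bind or control oxidase promoters, 0 passed with edgeR. At an unadjusted p under 0.05 there were 2 of the 11, beside 19.9% of all tested genes. With DESeq2 1 of the 11 passed (Irf8, DESeq2 adjusted p = 0.00581), beside 9.08% of its tested genes. Irf8, a factor of monocytes and dendritic cells that partners PU.1, had 152, 142 and 149 CPM in MI+RDN libraries and 186, 189 and 229 CPM in MI libraries, a log2 fold change of -0.45 (edgeR adjusted p = 0.0783). The edgeR fit without scaling factors called it (adjusted p = 0.0398). Spi1, which encodes PU.1, had 844, 667 and 804 CPM in MI+RDN libraries and 621, 665 and 551 CPM in MI libraries, a log2 fold change of 0.33 (edgeR adjusted p = 0.212). Its groups lay less than 2 CPM apart, and on unscaled library sizes, at 792, 652 and 759 CPM in MI+RDN libraries and 643, 681 and 598 CPM in MI libraries, they overlapped.

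Among 7 tested users and scavengers of the oxidase's products, 0 passed with edgeR. At an unadjusted p under 0.05 there was 1 of the 7, beside 19.9% of all tested genes. With DESeq2 1 of the 7 passed, beside 9.08% of its tested genes. Catalase, Cat, which breaks down hydrogen peroxide, had 69.4, 77.2 and 39.8 CPM in MI+RDN libraries and 93.5, 90.8 and 108 CPM in MI libraries (log2 fold change -0.65, edgeR adjusted p = 0.169, DESeq2 adjusted p = 0.0430). Myeloperoxidase, Mpo, which turns that peroxide into hypochlorous acid and is made in neutrophil precursors, had 19.6, 179 and 22.2 CPM in MI+RDN libraries and 29.8, 22.1 and 11.8 CPM in MI libraries. Its high value was that of MI+RDN replicate 2, and its log2 fold change of 1.80 became -0.035 without that library.

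Of the 9 other NADPH oxidase catalytic, activating and maturation genes, 7 had 0 counts in all 6 libraries, among them Nox1, Nox4 and Duox1, and Noxa1 had 4 counts in 1 MI library. Noxo1, the organiser paralogous to p47phox in epithelia, was the only one tested and did not pass with edgeR or limma-voom, with no adjusted p from DESeq2, at 0.616 ± 0.148 CPM in MI+RDN and 0.568 ± 0.173 CPM in MI (SD, n = 3), beside 826 and 609 CPM for Ncf1. Of the catalytic genes measured, Cybb was the only one with counts.

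**Figure D5:**
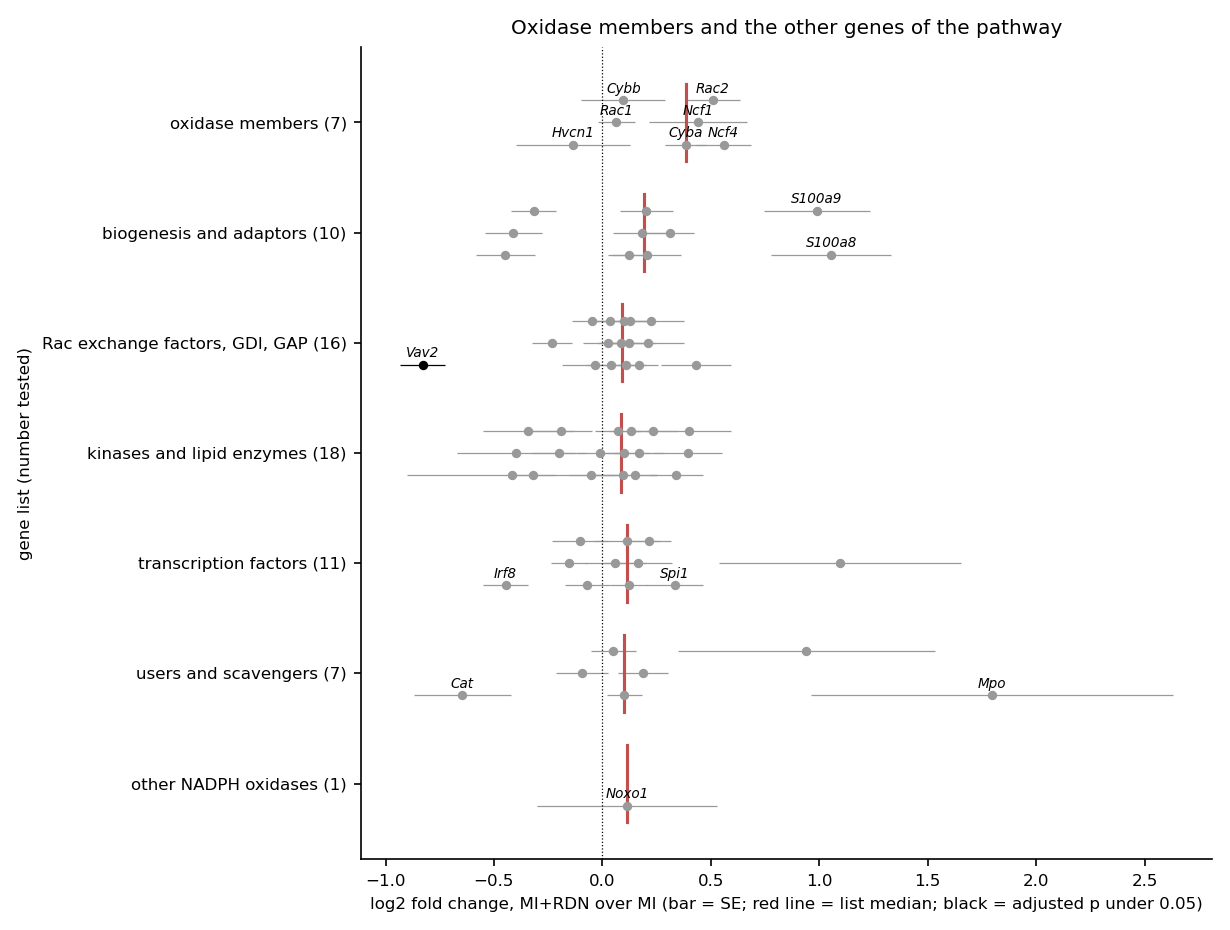
Log2 fold change of MI+RDN over MI for the oxidase genes and the other genes of the pathway by list, 1 point a gene with its SE, the list median as a red line and black for an adjusted p under 0.05. Vav2 is the only black point, and the oxidase genes run from -0.13 for Hvcn1 to 0.56 for Ncf4.

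Genes averaging 50 CPM or more were ranked by how closely their log2 profile over the 6 libraries followed the members, as the root mean square of the differences between centred profiles. The 5 nearest to the mean of the 7 members were Rad21, Anxa7, Ppp1cb, Cd93 and Tmem165, at 0.021 to 0.051 on the log2 scale beside a median of 0.23 over 3933 genes. Rad21 had 176, 205 and 147 CPM in MI+RDN libraries and 152, 154 and 142 CPM in MI libraries. Nearest to Cybb were Rps6ka1, Lims1 and Ikbke, at 0.056 to 0.071 beside a median of 0.28. Nearest to Rac1 were Copb1, Mapkapk2 and Lsm14a, at 0.0087 to 0.020 beside 0.15. Among the members themselves, Cyba and Rac2 were nearest to each other (0.11), then Ncf4 and Rac2 (0.12), and Rac2 and Hvcn1 farthest apart (0.51).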

How the data were processed

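Gene expression was measured by RNA sequencing of strand-specific TruSeq libraries, per the labels' protocols. The submitters' processing notes name FastQC 0.11.2, STAR and build GRCm39. The sources used here name no counter, annotation release, strand setting or rule for multi-mapping reads. The authors deposited 1 table of raw counts per Ensembl gene, with 1 column a library. Symbols and transcript lengths came by ID from GENCODE on GRCm38 (55154 IDs had a symbol).

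In R 4.3.3 with edgeR 4.0.16, filterByExpr at its defaults kept 14849 genes, TMM factors scaled library sizes, and the quasi-likelihood F test compared MI+RDN with MI over all 6 libraries with no covariates and Benjamini-Hochberg adjustment over all tested genes at 0.05. An SE is the size of the log2 fold change divided by the root of its F statistic. Ratios added 0.5 to counts, and log2 CPM used a prior count of 2. Alternatives were other scaling factors and filters, DESeq2 1.42.0, limma-voom (limma 3.58.1), a replicate block, a robust edgeR fit, each library omitted in turn, and library sizes that leave out antigen receptor, haemoglobin and mitochondrial genes. The fit was tested on simulated data.

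The members and lists were chosen with earlier results of these data known. All members are named. Each pathway list gives up to 4 passing genes with the lowest p, or 2 where none pass, each cell type list up to 2 that pass, and the genes most like the members are ranked by profile. Vav1, Clec10a, Cybc1, Rap1a, Hsp90aa1, Hsp90ab1, Coro1a, Nox1, Nox4, Noxa1, Duox1 and the genes that overlap members were named after their values were seen. Lists share S100a8, S100a9, Mpo, Epx, Cebpe and Chil3. No protein sequence was used here, and 1 further pathway list is not reported here.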

Additional observations from a re-analysis of the deposited data

How the results depend on the processing

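The count of genes past the threshold was 150, and it was 475 without scaling factors (62 higher and 413 lower), 21 without a filter, 1165 with DESeq2, 290 for genes averaging 5 CPM or more, 277 with robust edgeR, 277 without receptor, haemoglobin and mitochondrial genes, and 0 to 67 with 1 library left out. Leaving out MI+RDN replicates 1, 2 and 3 in turn gave 0, 67 and 36, and leaving out MI replicates 1, 2 and 3 gave 18, 4 and 0. The cause was not tested. With the replicate block it was 87. The labels do not say that a number marks a shared animal or day, and same-numbered libraries deviated together with correlations of 0.018, -0.065 and 0.064, so the numbers were not taken as pairs. Of the 7 oxidase genes, 0 passed in the main edgeR fit and 3 passed with DESeq2, with log2 fold changes of 0.39 for Cyba, 0.56 for Ncf4 and 0.51 for Rac2, and 0 passed in each of the 9 other settings on all libraries and in each of the 6 fits with 1 library left out. Over those 9 settings the edgeR or limma adjusted p ran from 0.0629 to 0.124 for Ncf4, 0.0787 to 0.162 for Rac2 and 0.0912 to 0.187 for Cyba. Signs turned without scaling factors for Cybb (-0.036), Rac1 (-0.072) and Noxo1 (-0.023). With 1 library left out the log2 fold change ran from -0.15 to 0.25 for Cybb, -0.58 to 0.041 for Hvcn1, -0.075 to 0.39 for Noxo1 and -0.035 to 2.25 for Mpo. The log2 ratio ran from -0.26 to 0.019 for Ncf1/Ncf4 and from -0.19 to 0.17 for Cybb/Rac1. Against Itgam the difference ran from -0.28 to 0.12 for Ncf1, -0.025 to 0.12 for Ncf4 and -0.018 to 0.053 for Rac2, and against Ly6C-high monocyte markers from -0.097 to 0.12 for Cybb and -0.060 to 0.10 for Rac1. Noxo1 has no value in the fit on genes averaging 5 CPM or more and no adjusted p with DESeq2. With the mean length of coding transcripts, the mean over the 6 libraries was 840 TPM for Cybb, 788 for Cyba, 1424 for Rac2 and 79.5 for Hvcn1. Counts of 1086 or more per library stood behind every member.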
